A study of Mus musculus with 6 samples.

Results

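A set of 10 genes of the cytotoxic granule and of killer cell receptors, Nkg7, Crtam, Serpinb9, Gzma, Gzmb, Prf1, Ctsw, Cst7, Srgn and Klrd1, was followed by the listed symbols through RNA sequencing of mouse CD4+ T cells. All 10 were found among the 55401 genes of the count tables, and all 10 had enough reads to be tested. One group was Satb1 flox/flox CD4-Cre, called Satb1 cKO below (3 libraries), and the other was control, labelled WT (3 libraries). Both held CD4+ T cells from spleen, enriched for naive cells on magnetic beads and then stimulated through CD3 and CD28 for 24 h. Cre driven by Cd4 regulatory sequences acts from the thymic stage at which cells carry both CD4 and CD8, so that CD8 T cells of such mice carry the deletion too. Whether control mice carried Cre or floxed alleles, the age of the mice, and whether a library came from 1 mouse or from a pool are not stated in the labels. The p-values set the difference between the groups only against the spread among libraries of a group, and that spread may therefore be technical. The series asks how gene expression differs in T cells that lack SATB1, a chromatin organiser of T lineage cells with a preference for AT-rich sequence.

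Killer lymphocytes store perforin and granzymes in secretory lysosomes, where the proteoglycan serglycin holds them in an inactive matrix. On contact with a target the granules are released, perforin opens the membrane and granzymes enter and trigger cell death, while cells that make granzyme B shield themselves with a cytosolic serpin. The programme is typical of CD8 T cells and NK cells, in which RUNX and T-box transcription factors drive it, and it is held low in most CD4+ T cells, where the factor ThPOK (Zbtb7b) represses it. CD4+ cells with cytotoxic features are known in mouse and human.

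Reads counted on genes ranged from 16621609 to 19023023 in Satb1 cKO libraries and from 14895389 to 20266626 in control libraries, so that 1 read was worth 0.0492 to 0.0671 CPM (reads of a gene scaled to the library's reads on genes, with TMM factors). Satb1 itself stood at 426, 546 and 462 CPM in Satb1 cKO, against 712, 851 and 727 CPM in control (log2 fold change -0.68 with an SE of 0.087; adjusted p = 9.7e-05, quasi-likelihood test of edgeR). Counts over the whole gene can include exons that Cre leaves in place. The T cell markers Cd3e, Cd3d, Cd3g and Trac were present in all libraries, at 139 to 247 CPM on average in Satb1 cKO and 153 to 284 CPM in control. Cd4 averaged 209 CPM in Satb1 cKO and 701 CPM in control. Red cell transcripts set the Satb1 cKO libraries apart, with a summed level of 310 to 1862 CPM over 7 genes, lowest in replicate 1, against 24.9 to 31.4 CPM in control.

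Of the 10 genes, 8 passed the test as higher in Satb1 cKO and 0 as lower, where 21.6% of the 13364 tested genes were called higher and 20.7% lower. The largest rises were those of Nkg7 and Crtam, and Gzma and Klrd1 did not pass. In 8 of the 10 every Satb1 cKO library lay above every control library, against 27% of tested genes. The median log2 fold change was 1.38 over the 10 genes and 0.003 over all tested genes. Against a fold change of 1.5 in place of 1, 7 of the 10 were called higher and 0 lower, where 4.57% of tested genes were called higher and 2.78% lower, Srgn being the one that dropped out (adjusted p = 0.574). The genes were listed with results of these libraries known, so their joint direction is not independent evidence. In bulk RNA, more cells that carry a transcript and more transcript per cell cannot be told apart.

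**Figure D1:**
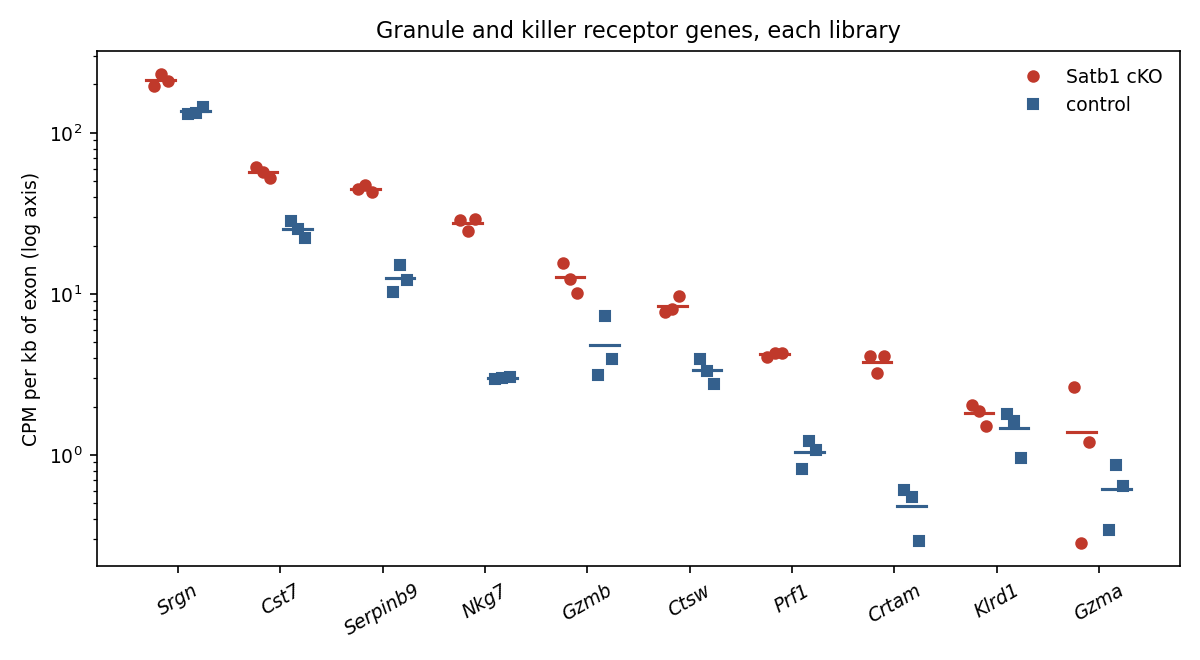
Level of each of the 10 genes in each library, in CPM per kb of exon on a log axis, for Satb1 cKO (circles) and control (squares), with bars at the group means. Srgn is the most abundant and Gzma and Klrd1 are among the least; among the 10, the groups overlap for Klrd1 and Gzma.

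Among the granule effectors, Prf1 encodes perforin, the pore-forming protein (ENSMUSG00000037202.6, GRCm38 chromosome 10, 61297833 to 61304680). It was read at 10.6, 11.1 and 11.2 CPM in Satb1 cKO, against 2.12, 3.16 and 2.79 CPM in control. The Satb1 cKO libraries lay close together and far above all controls, a 4.12-fold rise (log2 fold change 2.04, SE 0.157, adjusted p = 2.10e-06). Gzmb encodes granzyme B, which cleaves after aspartate and activates caspases (chromosome 14, 56258838 to 56262260). Its level was 22.2, 17.9 and 14.5 CPM in Satb1 cKO, against 4.48, 10.5 and 5.64 CPM in control. The groups did not overlap, though the lowest Satb1 cKO library, at 14.5 CPM, was near control replicate 2, at 10.5 CPM (log2 fold change 1.43, SE 0.255, adjusted p = 9.44e-04). Gzma, the tryptase granzyme A (chromosome 13, 113093825 to 113100981), had 51, 5 and 20 reads in Satb1 cKO, against 7, 13 and 10 reads in control. Satb1 cKO replicate 2 was the lowest of all 6 libraries and replicate 1 the highest, and Gzma did not pass the test (log2 fold change 1.22, 95% interval -0.17 to 2.62, adjusted p = 0.147). Without Satb1 cKO replicate 2 it was called (log2 fold change 1.70, adjusted p = 0.0148), and so it was with low-count genes kept in the fit (adjusted p = 0.00789). With low-count genes kept, the log2 fold change was 1.21, nearly the same, but the SE was 0.378, against 0.636 in the main fit. That call thus rests on a smaller estimate of spread from the same reads, not on a larger change. Without Satb1 cKO replicate 1 the log2 fold change was 0.29.

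Gzmb made up most of the granzyme transcripts in both groups. Per length, it held 80.7 ± 4.81% of the summed granzyme level in Satb1 cKO and 72.8 ± 5.91% in control (SD, n = 3 each; the summed level is CPM per kb over 10 genes). Gzmm, encoding the methionine-preferring granzyme M, was at 43, 35 and 25 reads in Satb1 cKO, against 22, 17 and 9 reads in control, and was called higher (log2 fold change 1.03, SE 0.307, adjusted p = 0.0190). Gzmk and Gzmc were read too rarely to be tested. Gzmk summed to 19 reads in Satb1 cKO and 4 in control, and Gzmc to 8 reads in Satb1 cKO and 16 in control. Gzmk thus lay above control in all 3 Satb1 cKO libraries and Gzmc below it, both at a depth where single reads move the value. Gzmk overlaps Esm1 on the opposite strand, itself at 12 reads in Satb1 cKO and 1 in control. The closely related genes Gzmd, Gzme, Gzmf, Gzmg and Gzmn had 0 reads in every library, which allows up to 3 reads or 0.148 to 0.201 CPM per library by counting error alone. Reads that align to several copies are usually left out by HTSeq, which bears on these 5 genes.

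Srgn, the most abundant of the set and encoding the serglycin core protein (chromosome 10, 62493833 to 62527451), stood at 427, 509 and 465 CPM in Satb1 cKO, against 290, 292 and 319 CPM in control. Its rise was the smallest of those called, 1.56-fold, with no overlap between groups (log2 fold change 0.64, SE 0.062, adjusted p = 1.17e-05). Nkg7 encodes a granule membrane protein needed for degranulation of mouse NK and CD8 T cells (ENSMUSG00000004612.9, chromosome 7, 43437073 to 43438249). It was measured at 26.5, 22.4 and 26.7 CPM in Satb1 cKO, against 2.71, 2.75 and 2.79 CPM in control. The control libraries were nearly equal and the Satb1 cKO libraries all far above them, a 9.16-fold rise and the largest among the 10 (log2 fold change 3.20, SE 0.119, adjusted p = 1.14e-08). Among all tested genes the log2 fold change of Nkg7 lay at percentile 99.3 and that of Crtam, a receptor described below, at percentile 99.1.

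Ctsw and Cst7 belong to the cysteine protease system of the granule. Ctsw encodes cathepsin W, a papain-like protease found mainly in NK and CD8 T cells (chromosome 19, 5465043 to 5468507). Satb1 cKO libraries held 14.5, 15.2 and 18.3 CPM of Ctsw and control libraries 7.48, 6.31 and 5.19 CPM, without overlap (2.50-fold, log2 fold change 1.32, SE 0.146, adjusted p = 3.22e-05). Its 3′ end overlaps that of Fibp on the opposite strand, whose level did not pass the test (log2 fold change 0.061, adjusted p = 0.463). Cst7 encodes cystatin F, an inhibitor of lysosomal cathepsins such as cathepsin C, the enzyme that activates granzymes (chromosome 2, 150570415 to 150578944). It was at 60.6, 56.8 and 51.8 CPM in Satb1 cKO, against 27.8, 25.0 and 21.8 CPM in control. Cst7 was thus higher in every Satb1 cKO library, 2.26-fold on average (log2 fold change 1.17, SE 0.088, adjusted p = 1.78e-06). Ctsc, the gene of cathepsin C itself, rose less, with 99.8 ± 3.17 CPM in Satb1 cKO and 81.9 ± 4.23 CPM in control (SD, n = 3 each; log2 fold change 0.28, SE 0.050, adjusted p = 8.80e-04), and was chosen after its values were seen.

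Serpinb9 encodes the cytosolic inhibitor of granzyme B (ENSMUSG00000045827.10, chromosome 13, 33003250 to 33017957). Its level was 157, 165 and 150 CPM in Satb1 cKO, against 35.9, 52.5 and 42.6 CPM in control. All Satb1 cKO libraries lay far above control, a 3.63-fold rise (log2 fold change 1.86, SE 0.102, adjusted p = 1.76e-07). Inhibitor and protease were then set against each other within each library, as the ratio of Serpinb9 to Gzmb per kb with 0.5 read added to each. This ratio was 2.91, 3.80 and 4.26 in Satb1 cKO, against 3.28, 2.04 and 3.09 in control. The groups overlapped, with mean log2 ratios of 1.85 ± 0.283 in Satb1 cKO and 1.46 ± 0.372 in control (SD, n = 3 each; difference 0.39). The two-sided exact permutation test gave p = 0.3, and 0.1 is the smallest p that 3 libraries against 3 allow, so this test could not have passed 0.05. The difference was 0.18 without control replicate 2.

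The receptors of the set split. Crtam encodes a receptor of activated killer lymphocytes that binds CADM1 and, in mouse, marks CD4+ T cells that can become cytotoxic (ENSMUSG00000032021.14, chromosome 9, 40969691 to 41004628). It stood at 21.1, 16.5 and 21.1 CPM in Satb1 cKO, against 3.10, 2.82 and 1.49 CPM in control. Even the lowest Satb1 cKO library was well above the highest control, a 7.76-fold rise (log2 fold change 2.96, SE 0.199, adjusted p = 7.68e-07). Klrd1 encodes CD94, which pairs with NKG2 chains to sense the MHC class I molecule Qa-1 in mouse (chromosome 6, 129591782 to 129598775). Its reads numbered 50, 42 and 32 in Satb1 cKO, against 47, 31 and 19 in control. The groups overlapped and the test was not passed (log2 fold change 0.29, 95% interval -0.29 to 0.88, adjusted p = 0.401), an interval that includes a fall, no change and a rise. Klrc1, encoding the inhibitory partner NKG2A, was called higher at 48, 31 and 24 reads in Satb1 cKO, against 8, 11 and 15 reads in control (log2 fold change 1.49, SE 0.362, adjusted p = 0.00641). It was chosen after its values were seen, as the partner of CD94, and whether its change differs from that of Klrd1 was not tested.

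**Figure D2:**
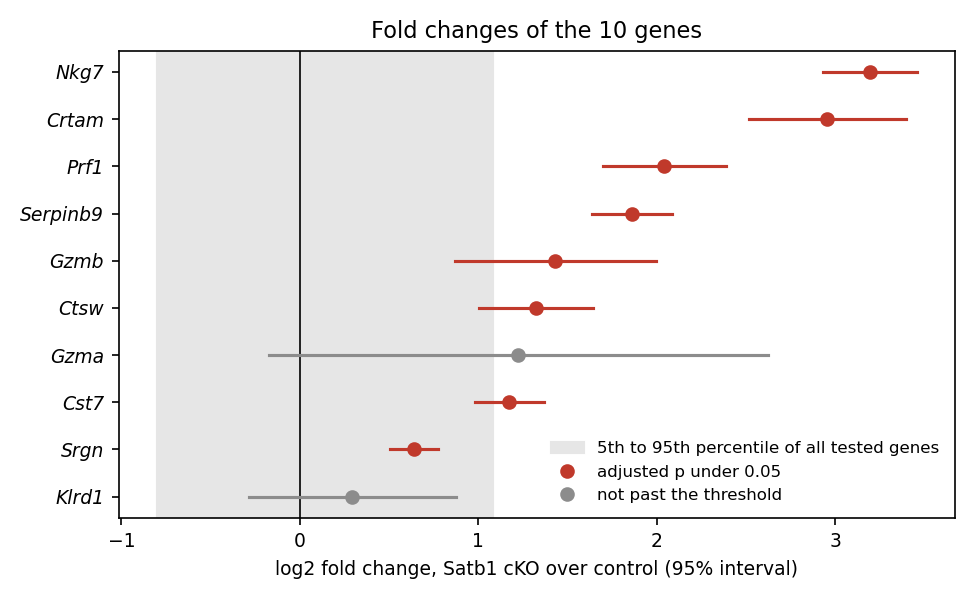
Log2 fold change of Satb1 cKO over control for the 10 genes (points) with 95% intervals (lines), over a grey band from -0.80 to 1.08 that holds the middle 90% of all tested genes. The intervals of Gzma and Klrd1 include 0.

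Per length, the order of the genes was close to the same in both groups at its top, with Srgn, Cst7 and Serpinb9 first in both. In Satb1 cKO the levels ran from Srgn (213 ± 18.6 CPM per kb) through Cst7 (57.2 ± 4.46), Serpinb9 (45.1 ± 2.10), Nkg7 (27.6 ± 2.64), Gzmb (12.7 ± 2.7) and Ctsw (8.48 ± 1.07) to Prf1 (4.23 ± 0.129), Crtam (3.81 ± 0.516), Klrd1 (1.81 ± 0.277) and Gzma (1.38 ± 1.20; SD, n = 3). Prf1 and Crtam, and Klrd1 and Gzma, were the only neighbours in that order whose libraries overlapped. In control, Gzmb (4.80 ± 2.24 CPM per kb), Ctsw (3.35 ± 0.609) and Nkg7 (3.01 ± 0.044) followed Serpinb9 (12.5 ± 2.39) and overlapped as neighbours in the order. So did Klrd1 (1.46 ± 0.445), Prf1 (1.04 ± 0.204), Gzma (0.618 ± 0.264) and Crtam (0.482 ± 0.168), the last 4. Nkg7 was the fourth in Satb1 cKO and the sixth in control, and Crtam was the eighth in Satb1 cKO and the last in control.

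Sequences before the transcription starts are shown for 5 of the genes, 4 that were called higher and Gzma, which did not pass the test. Serpinb9 and Srgn were called higher too, but their windows are not printed. The first window of each held no RUNX or T-box match. All 5 printed windows hold RUNX letters, so they do not stand for every gene with a window. RefSeq (GRCm38.p6) windows matched 7 of the 10 genes; Crtam, Ctsw and Klrd1 have no entry. The bases before the start are given 5′ to 3′ on the gene's strand, without bases that GENCODE M21 places in an exon: chr7:43436888-43437072 (plus) for Nkg7, chr14:56262335-56262584 (minus) for Gzmb, chr10:61297586-61297832 (plus) for Prf1, chr2:150570165-150570414 (plus) for Cst7 and chr13:113100982-113101231 (minus) for Gzma. Capitals mark matches to the RUNX motif TGTGGT or the T-box motif AGGTGT on either strand (ACCACA and ACACCT on the other).
Nkg7: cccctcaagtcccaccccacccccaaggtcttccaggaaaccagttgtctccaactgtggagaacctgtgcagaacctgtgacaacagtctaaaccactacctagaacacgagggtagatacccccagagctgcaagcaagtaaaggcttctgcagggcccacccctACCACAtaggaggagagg
Gzmb: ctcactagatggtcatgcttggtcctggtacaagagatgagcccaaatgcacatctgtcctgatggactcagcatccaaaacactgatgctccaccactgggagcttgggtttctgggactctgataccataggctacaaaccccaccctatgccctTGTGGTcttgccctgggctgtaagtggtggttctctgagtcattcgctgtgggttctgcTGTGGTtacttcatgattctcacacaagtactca
Prf1: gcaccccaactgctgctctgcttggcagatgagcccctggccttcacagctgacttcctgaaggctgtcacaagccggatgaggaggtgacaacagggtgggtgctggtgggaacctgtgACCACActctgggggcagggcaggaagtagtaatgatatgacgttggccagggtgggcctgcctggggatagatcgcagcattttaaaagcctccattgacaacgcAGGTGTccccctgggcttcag
Cst7: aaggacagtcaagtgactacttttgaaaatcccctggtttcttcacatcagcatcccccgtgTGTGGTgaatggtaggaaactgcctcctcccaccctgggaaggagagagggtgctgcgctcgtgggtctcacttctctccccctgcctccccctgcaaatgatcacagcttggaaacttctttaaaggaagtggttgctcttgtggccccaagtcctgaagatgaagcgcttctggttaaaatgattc
Gzma: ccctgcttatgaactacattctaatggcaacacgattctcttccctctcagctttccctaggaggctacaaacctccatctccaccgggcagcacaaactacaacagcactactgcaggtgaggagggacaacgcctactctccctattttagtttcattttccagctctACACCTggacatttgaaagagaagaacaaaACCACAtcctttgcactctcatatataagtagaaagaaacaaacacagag

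The letters of the RUNX motif were found in the 250 bases before the start in 6 of the 8 windows of these genes, Srgn having 2 windows of which 1 had a match, and in 14% of 32851 RefSeq windows of the same length. The Srgn match lies 202 bases before its second start, outside the longest stretch of that window without exon bases (76 bases). Gzmb had 2 matches, the nearer 34 bases before the start. The T-box letters were found for Nkg7, Prf1 and Gzma, and in 11.8% of all windows. The match of Nkg7 lies 14 bases before the RefSeq start, in bases that GENCODE counts as exon and that are not printed. Gzmb also held the AP-1 letters TGANTCA (6.75% of all windows) and Nkg7 the STAT letters TTCNNNGAA (7.02%), and no 2 matches overlapped. The windows of Serpinb9, whose RefSeq start lies inside the GENCODE gene, and of the first start of Srgn held none of the 4 motifs. The Gzma window holds both RUNX and T-box letters although the gene did not pass the test. A match describes letters and does not show that a factor binds there. The share of A and T was 41.2 to 57.2% over the 8 windows, around a median of 47.6% over all windows.

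Beyond the 10 genes, 97 of 99 listed symbols of the killing pathway matched the tables (Cd244 is an older name of Cd244a, and Vamp7 was not analysed here). Of these, 69 were tested, of which 42 were called higher, 16 lower and 11 neither, with a median log2 fold change of 0.49. Against a fold change of 1.5, 21 were higher and 5 lower. Of all tested genes, that stricter test called 4.57% higher and 2.78% lower. The background shares of 21.6% higher and 20.7% lower apply to the 42 and 16 calls of the main test. The 16 lower calls were thus close in share to those of all genes. Genes that occur on several lists are counted once in these totals.

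Effector ligands and cytokines, of which 5 were tested beside Prf1, rose in 4 and fell in none. Tnfsf10, encoding the death ligand TRAIL, averaged 27.8 ± 2.06 CPM in Satb1 cKO and 9.62 ± 0.861 CPM in control (SD, n = 3 each; log2 fold change 1.53, SE 0.095, adjusted p = 4.06e-07). Lta, encoding lymphotoxin alpha, rose by 1.17 on the log2 scale (SE 0.081). Ifng, the interferon gamma gene, had 205, 113 and 232 reads in Satb1 cKO, against 6, 11 and 29 in control (log2 fold change 3.49, SE 0.436, adjusted p = 8.12e-05). Fasl, encoding Fas ligand, the other death ligand of killer T cells, was at 11.7 ± 2.12 CPM in Satb1 cKO and 11.4 ± 4.78 CPM in control and did not pass (adjusted p = 0.979); it was chosen after its values were seen.

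Granule matrix and lysosomal genes beside the members rose in 7 of 8 tested and fell in 1. Calr, encoding calreticulin, which is found in the granule as well as the endoplasmic reticulum, averaged 1094 ± 22.4 CPM in Satb1 cKO and 745 ± 14.7 CPM in control (log2 fold change 0.55, adjusted p = 2.71e-07). The genes of the mannose 6-phosphate receptors, which sort lysosomal enzymes, went opposite ways. M6pr rose by 0.44 on the log2 scale (SE 0.048), and Igf2r fell by 0.60 (SE 0.054), with 109 ± 5.06 CPM in Satb1 cKO and 165 ± 10.2 CPM in control (adjusted p = 7.19e-06). Airn overlaps Igf2r on the opposite strand with 162 reads in Satb1 cKO and 296 in control, where Igf2r had 5783 reads in Satb1 cKO and 8423 in control.

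The machinery of docking and release was mixed, with 6 of 15 tested genes higher, 3 lower and 6 that did not pass. Sytl1 and Sytl2 encode related effectors of Rab27 and moved in opposite directions. Sytl1 rose to 20.1 ± 0.612 CPM in Satb1 cKO, against 11.1 ± 0.702 CPM in control, and Sytl2 fell to 5.0 ± 0.131 CPM in Satb1 cKO, against 11.9 ± 0.949 CPM in control (adjusted p = 1.76e-05 and 1.11e-05). Lyst, the lysosomal trafficking gene mutated in beige mice, fell to 50.5 ± 1.46 CPM in Satb1 cKO, against 105 ± 21.9 CPM in control (log2 fold change -1.05, SE 0.119). Rab27a, Unc13d and Stxbp2, core genes of granule docking and priming chosen after their values were seen, differed by -0.01, 0.08 and 0.02 on the log2 scale and did not pass (adjusted p = 0.912, 0.392 and 0.759). Stx11, of the same list and also chosen after its values were seen, was called higher. It averaged 80.4 ± 9.83 CPM in Satb1 cKO and 49.6 ± 6.81 CPM in control (log2 fold change 0.69, SE 0.101, adjusted p = 2.56e-04).

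Serpins beside Serpinb9 rose in 5 of 6 tested and fell in 1. Serpinb6b, a neighbour of Serpinb9 and like it an intracellular serpin, averaged 96.3 ± 8.72 CPM in Satb1 cKO and 36.9 ± 4.12 CPM in control (log2 fold change 1.38, SE 0.084). Serpina3g, encoding an inhibitor of lysosomal cathepsins, and its close relative Serpina3f rose by 2.84 and 3.19 on the log2 scale (SE 0.326 and 0.251). Serpinb9b, another neighbour of Serpinb9, chosen after its values were seen, went the other way, with 12 reads in Satb1 cKO and 40 in control (log2 fold change -1.79, SE 0.511, adjusted p = 0.0153). The further copies Serpinb9c to Serpinb9g had 0 reads in every library, and reads shared between such copies are usually left out of the counts.

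Killer receptors other than Crtam and Klrd1 were higher in 5 and lower in 3 of 8 tested. Cd160, a receptor of cytotoxic lymphocytes, rose by 1.86 on the log2 scale (SE 0.194) and Slamf7, a receptor of activated lymphocytes, by 0.96 (SE 0.107). Cd226, the activating receptor DNAM-1, fell to 62.8 ± 4.96 CPM in Satb1 cKO, against 141 ± 20.1 CPM in control (log2 fold change -1.16, SE 0.092, adjusted p = 2.52e-06). Among adaptors, 3 of 6 rose and 1 fell: Sh2d1a, encoding the SLAM adaptor SAP, rose by 1.26 (SE 0.063), Tyrobp, encoding DAP12 of NK and myeloid cells, by 2.38 (SE 0.362), and Cd247, encoding CD3 zeta, fell by 0.52 on the log2 scale (SE 0.052). Cd247 overlaps Pou2f1 on the opposite strand (3103 reads in Satb1 cKO and 3651 in control). The summed level of the killer receptor list with Crtam and Klrd1 in it, led by Cd226, was lower in Satb1 cKO (163 to 195 CPM) than in control (202 to 249 CPM), against the direction of its median log2 fold change of 0.97.

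Transcription factors of the cytotoxic programme were higher in 11 and lower in 7 of 20 tested. Runx3, which drives it in CD8 T cells, averaged 141 ± 4.61 CPM in Satb1 cKO and 71.1 ± 3.58 CPM in control (log2 fold change 0.98, SE 0.050, adjusted p = 8.76e-08). Id2, a factor of effector lymphocytes, rose by 1.42 (SE 0.084). Zbtb7b, encoding ThPOK, fell to 62.2 ± 6.03 CPM in Satb1 cKO, against 146 ± 4.81 CPM in control (log2 fold change -1.23, SE 0.065, adjusted p = 1.27e-07). The T-box genes, chosen after their values were seen, were called higher as well. Eomes stood at 12.7, 9.67 and 10.7 CPM in Satb1 cKO, against 3.64, 6.11 and 6.03 CPM in control. Tbx21, encoding T-bet, stood at 108, 106 and 111 CPM in Satb1 cKO, against 17, 64.1 and 69.8 CPM in control, where replicate 1 was far below the others (adjusted p = 0.0191).

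**Figure D3:**
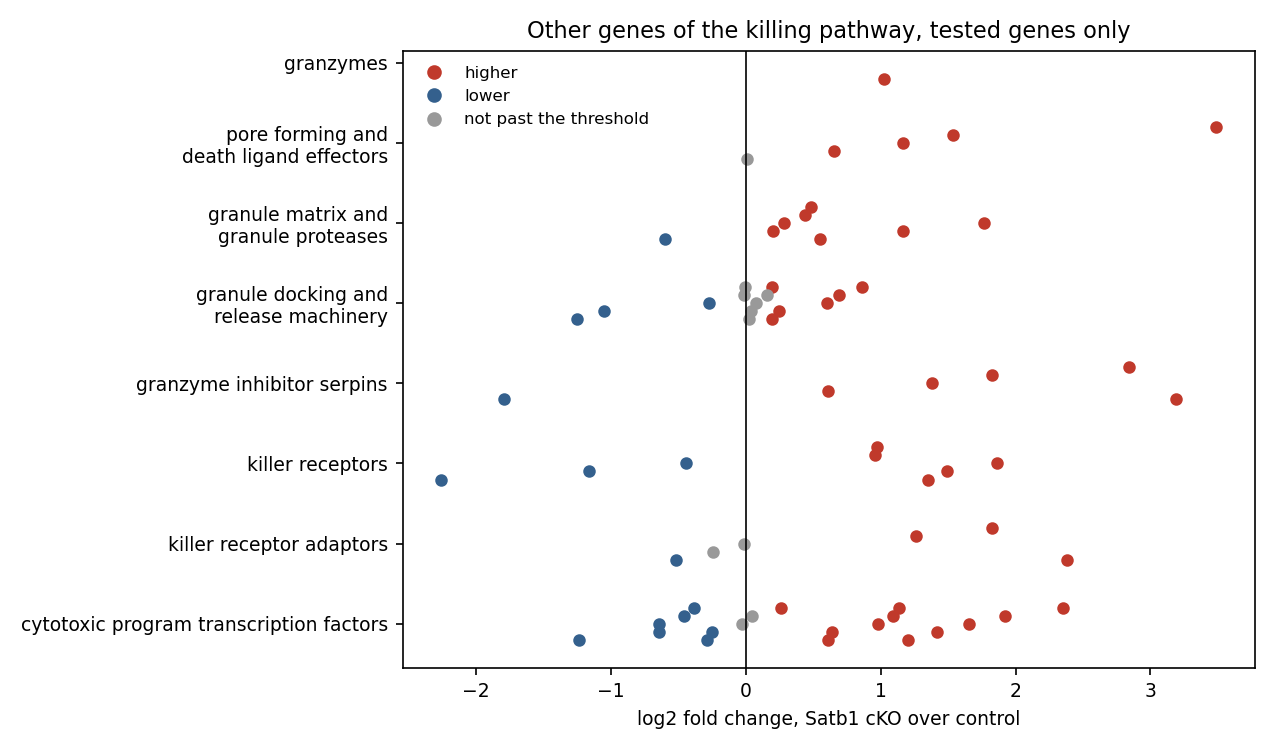
Log2 fold change of Satb1 cKO over control for tested genes of the killing pathway other than the 10, 1 row per list, coloured by the test. Most lists spread to the right, while release machinery, receptors and transcription factors hold genes on both sides. The transcription factors include Zbtb7b, a repressor gene of the programme. A gene on 2 lists is drawn in each.

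By position, the 10 genes sit on 8 chromosomes, Prf1 and Srgn both on chromosome 10 and Serpinb9 and Gzma both on chromosome 13. Within 250 kb of them lay 65 further tested genes. Among these 26 rose and 7 fell, a share of 40% higher, where 21.6% of all tested genes were called higher and 20.7% lower. These neighbours include members of the same families. Beside Klrd1 all 5 tested neighbours rose: Klrk1, encoding the activating receptor NKG2D, Klrc1, Clec12a, Clec7a and Gabarapl1. The largest of these rises was that of Clec12a (log2 fold change 2.38). Beside Gzmb both tested neighbours rose, the protease genes Mcpt8 and Ctsg of basophils and neutrophils. Around Ctsw, with 24 tested neighbours, 7 rose and 2 fell, and around Srgn 1 of 7 rose and 1 fell.

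The genes of most like profile were found by the root mean square difference of log2(CPM + 0.5) over the 6 libraries, each profile centred on its own mean. For Nkg7 they were Slc6a19, Serpinc1 and Pcyt1a (differences of 0.132, 0.143 and 0.149), and for Crtam they were Penk, Slc6a19 and Cd8a (0.197, 0.226 and 0.240). For Serpinb9 they were Ell2, Fam83g and Cpa3 (0.102, 0.105 and 0.113), and for Gzmb they included Trim30c and Tenm1 (0.166 and 0.197). Several of these are far less abundant than the member they resemble: Slc6a19 averaged 4.16 CPM and Trim30c 0.907 CPM in Satb1 cKO. The added 0.5 CPM shrinks changes at such levels, so a like profile need not mean a like fold change. The log2 fold change was 4.50 for Slc6a19 and 3.17 for Pcyt1a, against 3.20 for Nkg7. It was 2.65 for Trim30c against 1.43 for Gzmb, and 1.82 for Ell2 against 1.86 for Serpinb9. Tenm1 overlaps Sh2d1a on the opposite strand.

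Markers of other cells that bead enrichment can leave moved with the 10 genes. For the counts of markers here and in the next paragraph, the share of all tested genes called higher was 21.6%. NK cell markers were tested in 5 of 12, of which 4 rose, and their summed level ranged from 30.2 to 47.5 CPM in Satb1 cKO and from 8.47 to 10.9 CPM in control. In Satb1 cKO most of that sum was Xcl1 and Eomes, which activated T cells also express. The others of the 4 were Fcer1g and Tyrobp, of which Tyrobp, as given above, is also a gene of myeloid cells. The other 7 NK genes, all NK receptor genes but S1pr5, were read too rarely to be tested. Klre1 had 27 reads over the Satb1 cKO libraries and 2 over the control libraries, Klra8 had 31 in Satb1 cKO and 8 in control, and Klra9 had 23 in Satb1 cKO and 7 in control. Over the same libraries Ncr1 had 17 reads in Satb1 cKO and 20 in control, Klrb1c 20 in Satb1 cKO and 14 in control, Klra4 16 in Satb1 cKO and 12 in control, and S1pr5 8 in both groups. Itga2, tested, did not pass (adjusted p = 0.434). Cd8a rose by 2.95 on the log2 scale (SE 0.268), to 6.28 ± 1.39 CPM in Satb1 cKO against 0.792 ± 0.243 CPM in control, while Cd8b1 did not pass, at 19.8 ± 2.19 CPM in Satb1 cKO and 18.1 ± 1.98 CPM in control. Of 7 markers of gamma-delta T and NKT cells, 5 were tested and 4 rose, with sums of 19.8 to 25.5 CPM in Satb1 cKO and 6.94 to 11 CPM in control; Zbtb16 was near 0, with 16 reads in Satb1 cKO and 10 in control.

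Granulocyte and monocyte markers rose as well. All 10 tested myeloid markers, of 14 listed, were higher, with sums of 74.8 to 150 CPM in Satb1 cKO and 16.3 to 19.1 CPM in control; Ly6g had 2 reads in Satb1 cKO and 0 in control. All 5 tested mast cell and basophil markers, of 8, were higher, with sums of 30.2 to 34.4 CPM in Satb1 cKO and 6.79 to 9.33 CPM in control, and Mcpt4 and Tpsb2 had 0 reads. B cell markers rose in 3 of 6 tested (58.8 to 94.4 CPM in Satb1 cKO and 51.4 to 58.3 CPM in control) and platelet markers in 2 of 2 tested (5.72 to 10.1 CPM in Satb1 cKO and 2.56 to 4.16 CPM in control, Gp1bb at 0 reads). Srgn and Serpinb9 are also transcribed in myeloid cells and mast cells. The part of these cells in the rises of the 10 genes was not tested. The summed T cell markers were lower in Satb1 cKO (1831 to 1876 CPM) than in control (2381 to 2475 CPM), 5 of 8 being called lower and Cd5 higher. Cd4 alone, at 209 CPM in Satb1 cKO and 701 CPM in control, made most of that difference, and Cd3e and Cd3g did not pass.

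**Figure D4:**
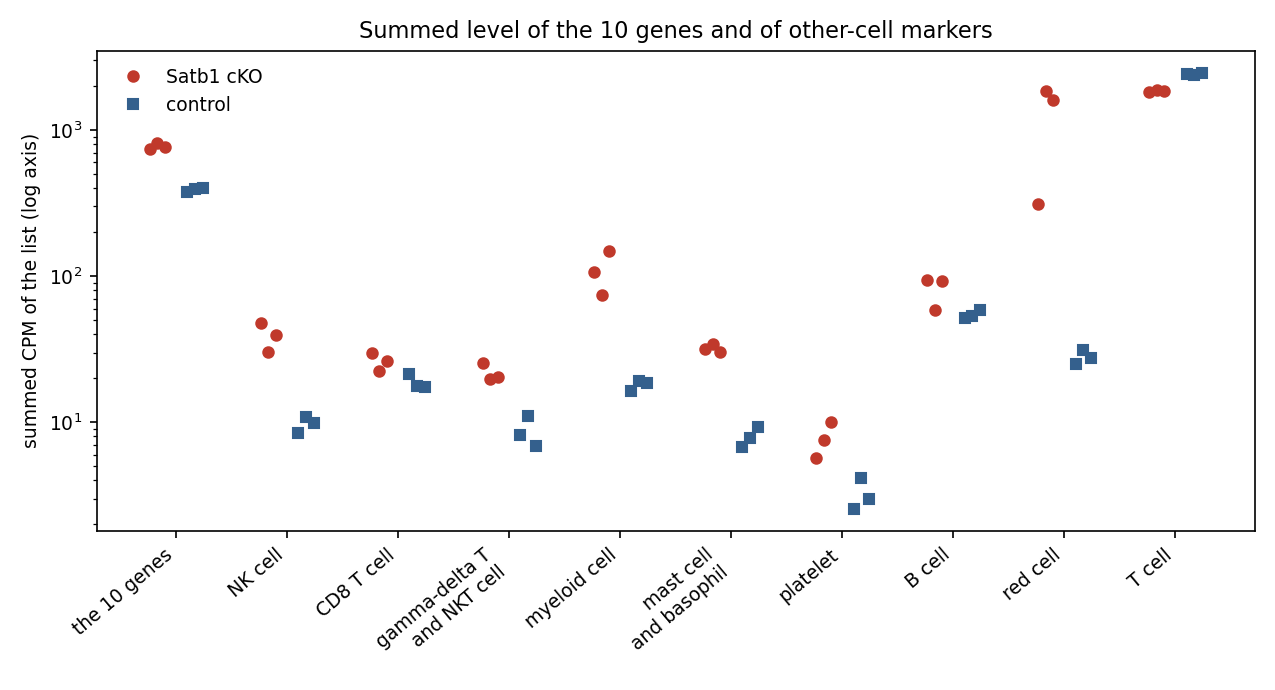
Summed CPM of the 10 genes and of each marker list in each library, on a log axis, for Satb1 cKO (circles) and control (squares). The 10 genes sum to 746 to 817 CPM in Satb1 cKO and 376 to 403 CPM in control. The sums of all marker lists but that of T cells are also higher in every Satb1 cKO library than in any control library, by little for CD8 T and B cells.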

How the data were processed

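Each library came as the authors' deposited raw read counts per gene, not normalized. The submitters' processing notes name STAR 2.7.3a, HTSeq 0.12.4 and mm10. The strand setting and annotation release were not given in the sources used here, and reads in antisense overlaps may therefore belong to either gene. The 5 summary lines that name no gene were left out; of all reads, those on no feature made up 7.32 to 9.50%, ambiguous reads 5.40 to 5.57% and reads with several alignments 2.92 to 3.16%. Symbols, positions and exon lengths came from GENCODE M21 (GRCm38, 1-based), which matched 55141 of 55401 identifiers. The replicates of a group differed by more than sampling noise (chi-square divided by its degrees of freedom, 2.18 to 7.62).

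Counts were tested with edgeR 4.0.16 in R 4.3.3 (filterByExpr, TMM, glmQLFit and glmQLFTest with group as the only term), which kept 13364 genes, with Benjamini-Hochberg adjustment over all of them; genes with an adjusted p under 0.05 were called. Every adjusted p is from this test unless another is named. Standard errors are the log2 fold change over the root of F. CPM uses TMM-scaled library sizes, and levels between genes are compared per kb of exon. The code was tested on simulated data. The 10 genes, the lists, the motifs and the tests were chosen with earlier results of these data known. Named genes were the 10, Satb1, all granzymes, up to 3 called genes of smallest p from every other list of the pathway and the 3 closest profiles of 4 members, of which 1 is not reported here; others were picked with their values in view and say so, apart from neighbours and marker genes. Alternatives were DESeq2 1.42.0, other scaling, filters and gene sets, a replicate block, a test against 1.5-fold (glmTreat) and leaving out each library.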

Additional observations from a re-analysis of the deposited data

How the results depend on the processing

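Over the 13 alternatives, 126 of 129 values of single members kept their direction and their side of the threshold. The exceptions were Gzma, called without a filter on low counts (log2 fold change 1.21) and without Satb1 cKO replicate 2 (1.70), and Srgn, which was not called against 1.5-fold. Without the filter the SE of Gzma was 0.378, against 0.636 in the main fit, at nearly the same log2 fold change. With at least 1 CPM in 3 libraries Gzma was not tested. The count of members called higher ranged from 7 (against 1.5-fold) to 9, and 0 were called lower in every alternative. Against 1.5-fold, a stricter question by construction, 611 genes were called higher and 372 lower, 21 and 5 of the other pathway genes, and Satb1 was not called (log2 fold change -0.68, adjusted p = 0.460). The log2 fold change of Nkg7 ran from 3.15 to 3.27 over the alternatives and that of Gzmb from 1.17 to 1.85. The difference in the Serpinb9 to Gzmb ratio ran from 0.18 without control replicate 2 to 0.55 without Satb1 cKO replicate 1.

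With the replicate number as a replicate block, 8 members were called higher and 0 lower, and 42 and 16 of the other pathway genes, as without it. Deviations from the group means correlated at 0.026, -0.010 and 0.024 between libraries of the same number. Between libraries of different numbers they correlated at -0.070 to 0.050, so no pairing by number was visible. With 3 libraries per group, this cannot show whether a day or batch was shared. Gzmk and Gzmc had too few reads to be tested. Intervals and floors cover counting error only where they come from counts.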

Other observations

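Mcpt8, a basophil protease gene, averaged 11.8 ± 0.729 CPM in Satb1 cKO and 2.30 ± 0.956 CPM in control (SD, n = 3 each; log2 fold change 2.38, SE 0.217, adjusted p = 7.74e-06). Ctsg, encoding cathepsin G, lies with Mcpt8 in the stretch of chromosome 14 that holds Gzmb and rose by 2.61 on the log2 scale (adjusted p = 1.25e-04). Elane, encoding the serine protease neutrophil elastase, and Mpo, encoding the peroxidase of neutrophil granules, had 160 and 506 reads summed over the Satb1 cKO libraries and 12 and 49 reads over the control libraries. The mast cell protease genes Mcpt4 and Tpsb2 had 0 reads in every library, and Cma1 had 9 reads in Satb1 cKO and 2 in control and was not tested. These genes were chosen after their values were seen and stand for no group.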
